A study of Homo sapiens with 4 samples.

Results

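The genes described here were 10 human heat shock and chaperonin genes, chosen by name as a family. No rule on their peaks was used, but earlier results of these data were known at the choice. HSPD1, HSPE1 and HSPA9 encode mitochondrial chaperones, HSPA5 and HSP90B1 chaperones of the endoplasmic reticulum (ER), HSPA8, HSP90AA1, HSP90AB1 and DNAJB1 cytosolic chaperones, and HSF1 the factor that regulates heat shock genes. They were taken from 19970 protein-coding genes annotated on chromosomes 1 to 22 and X. ZNF217, a zinc finger transcription factor, was mapped by CUT&Tag, in which an antibody tethers a transposase that tags nearby DNA. The cells were untreated MV4-11 and U937, human acute myeloid leukemia (AML) lines of monocytic character that carry a KMT2A fusion (MV4-11) and a PICALM fusion (U937). The series holds 4 samples, a ZNF217 and an IgG library for each line, of which the ZNF217 peak lists were used and IgG was not analysed here. With 1 library per line, no difference between MV4-11 and U937 could be checked against replicates, and no test was made.

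Chaperones bind unfolded proteins and help them to fold, to cross membranes or to be degraded. In stressed cells HSF1 forms trimers and binds heat shock elements, which are inverted repeats of the unit GAA or TTC in the promoters of cytosolic and mitochondrial chaperone genes. ER chaperone genes answer to unfolded protein in the ER instead, through ER stress elements that are bound by the CCAAT-binding factor NF-Y together with ATF6. Leukemia cells depend on several of these proteins, and inhibitors of HSP90 have been tried in AML.

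Each peak list gave the chromosome, start and end of the called peaks on hg38, without height or read count, so the depth is unknown. The MV4-11 list held 37635 peaks with a median width of 621 bp, and the U937 list held 22521 peaks with a median width of 686 bp, a ratio of 1.67. Peak positions are printed as in the lists, which leaves 1 bp open, since no source said whether starts count from 0 or 1. Of 6 myeloid marker genes, 5 had a promoter peak in MV4-11 and 4 in U937 (SPI1, CD33, ITGAM and CSF1R in both, MPO in MV4-11 alone, LYZ in neither). Of 6 hepatocyte markers, APOA1 had one in MV4-11 alone (2306 bp wide) and APOB in U937 alone (408 bp wide). ALB, TTR, FGB and SERPINA1 had none in either line.

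The elements by which chaperone genes are known to be regulated were located first, since the peaks can then be read against them. RefSeq promoter windows (GRCh38.p14, 250 bp before to 50 bp after a start) were held for 9 of the 10 genes, and HSF1 was the one without a window. The heat shock element of 3 units was searched as GAANNTTCNNGAA, that of 2 units as GAANNTTC or TTCNNGAA, and that of 4 units as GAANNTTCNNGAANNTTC or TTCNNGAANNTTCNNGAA, on both strands, so that longer elements contain the shorter ones. The windows that carried them at the main start of HSPD1, HSPA8, HSP90AA1 and DNAJB1, and that at an internal start of HSP90AB1, are printed here from 250 bp to 1 bp before the start, 5′ to 3′ on the gene's strand, with every base of a heat shock element in capitals.
HSPD1 (chr2:197499841-197500090, minus strand): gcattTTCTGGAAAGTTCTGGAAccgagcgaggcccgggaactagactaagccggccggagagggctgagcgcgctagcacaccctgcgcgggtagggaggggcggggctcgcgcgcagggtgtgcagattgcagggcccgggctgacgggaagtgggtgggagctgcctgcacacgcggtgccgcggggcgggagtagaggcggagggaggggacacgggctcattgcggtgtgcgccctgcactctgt
HSPA8 (chr11:123062137-123062386, minus strand): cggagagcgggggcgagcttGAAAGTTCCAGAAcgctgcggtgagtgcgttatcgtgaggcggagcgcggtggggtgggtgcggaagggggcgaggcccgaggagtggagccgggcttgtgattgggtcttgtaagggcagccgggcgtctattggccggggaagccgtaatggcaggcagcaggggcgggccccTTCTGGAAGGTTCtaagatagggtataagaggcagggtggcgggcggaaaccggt
HSP90AA1 (chr14:102087045-102087294, minus strand): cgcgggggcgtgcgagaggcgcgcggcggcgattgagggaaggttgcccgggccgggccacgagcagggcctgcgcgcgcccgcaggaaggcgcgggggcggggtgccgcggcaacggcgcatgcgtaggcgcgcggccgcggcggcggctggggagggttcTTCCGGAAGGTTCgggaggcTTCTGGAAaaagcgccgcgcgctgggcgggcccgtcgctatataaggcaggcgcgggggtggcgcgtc
DNAJB1 (chr19:14518398-14518647, minus strand): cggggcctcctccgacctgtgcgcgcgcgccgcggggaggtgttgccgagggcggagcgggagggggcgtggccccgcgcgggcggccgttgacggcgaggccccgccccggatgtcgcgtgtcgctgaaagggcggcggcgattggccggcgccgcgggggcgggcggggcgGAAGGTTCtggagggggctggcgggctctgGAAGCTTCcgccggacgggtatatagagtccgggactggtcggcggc
HSP90AB1 (chr6:44247693-44247942, plus strand): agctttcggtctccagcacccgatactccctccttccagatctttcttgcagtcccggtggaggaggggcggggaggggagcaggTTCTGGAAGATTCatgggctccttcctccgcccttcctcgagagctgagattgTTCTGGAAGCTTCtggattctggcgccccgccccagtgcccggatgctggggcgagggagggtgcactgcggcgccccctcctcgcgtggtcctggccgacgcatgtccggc

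The element of 3 units was rare, in 0.402% of 22132 windows, and stood in the window at the main start of 3 of the 9 genes, namely HSPD1, HSPA8 and HSP90AA1. HSPD1 carried an element of 4 units, at 245 to 228 bp before its start, and such an element was found in 0.0226% of all windows. HSPA8 carried an element of 3 units at 230 to 218 bp and another at 55 to 43 bp before its start. HSP90AA1 carried 1 element of 3 units at 88 to 76 bp before its start and a further one of 2 units at 68 to 61 bp. DNAJB1 carried 2 separate elements of 2 units, at 77 to 70 bp and 47 to 40 bp before its start. The element of 2 units was common, in 11.6% of all windows, and 5 of the 9 genes had it at the main start, HSPA9 being the fifth with 1 element across the start itself. HSP90AB1 had none at its main start, and its elements of 3 units began 677 and 730 bp downstream of that start, before an internal start within the first intron.

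The ER stress element was searched as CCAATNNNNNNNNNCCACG on both strands. It stood in 0.104% of all windows and at the main start of 2 of the 9 genes, HSPA5 and HSP90B1, which are both ER chaperone genes. Their windows are shown in the same way, with the ER stress elements in capitals; the second element of HSP90B1 is on the opposite strand.
HSPA5 (chr9:125241344-125241593, minus strand): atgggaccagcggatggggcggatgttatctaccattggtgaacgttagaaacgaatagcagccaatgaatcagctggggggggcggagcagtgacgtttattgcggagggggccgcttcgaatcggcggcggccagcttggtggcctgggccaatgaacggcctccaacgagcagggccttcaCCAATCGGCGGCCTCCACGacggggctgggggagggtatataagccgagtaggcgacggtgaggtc
HSP90B1 (chr12:103930160-103930409, plus strand): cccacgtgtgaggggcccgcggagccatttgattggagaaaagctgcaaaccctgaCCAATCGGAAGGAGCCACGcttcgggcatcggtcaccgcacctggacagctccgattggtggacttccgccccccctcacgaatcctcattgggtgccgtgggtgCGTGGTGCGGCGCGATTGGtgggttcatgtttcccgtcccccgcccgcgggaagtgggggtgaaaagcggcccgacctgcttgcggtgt

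The HSPA5 element lay 66 to 48 bp before the start. The HSP90B1 elements lay 194 to 176 bp and 89 to 71 bp before the start, and both genes had 5 copies of CCAAT in the window of 300 bp, a sequence of 5 bases found in 34.6% of windows and in the windows of 4 of the 9 genes. The GC box GGGCGG was present at the main start of 9 of the 9 genes, against 56.3% of all windows. CAGAA, the core of the motif reported for ZNF217, was present at 5 of the 9 genes, against 49.5% of all windows, so that the chaperone promoters were close to the background in this short sequence. A match is a description of letters in a window and shows no binding.

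ZNF217 peaks lay at the promoters of all 10 genes in both lines. A promoter was the window of 1 kb on each side of any annotated transcription start site (TSS), and 59% of all protein-coding genes had such a peak in MV4-11, 50.5% in U937 and 47.4% in both. The promoters of the 10 genes are GC-rich, with a median GC content of 66.4% (56.8% to 81.1%) against 63.5% over all genes. Among the 13698 genes within the same range of GC content the shares were 70.1% in MV4-11, 60.8% in U937 and 57.5% in both. The peaks of the 10 genes also covered the main start itself, that of the representative transcript, in 10 of 10 genes in each line, against 48.9% of all genes in MV4-11 and 38.9% in U937. The 10 of 10 genes thus stood above the share of all genes and that of genes with like GC content, by counts alone, for genes chosen with earlier results of these data known.

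HSPD1 and HSPE1 encode the mitochondrial chaperonin HSP60 and its co-chaperonin HSP10, which close to form the folding chamber. The genes are divergent, with main starts 539 bp apart on chromosome 2, and 1 peak covered both starts in each line. It spanned chr2:197498811-197500649 (1838 bp) in MV4-11 and chr2:197498934-197500688 (1754 bp) in U937. The 2 peaks overlapped over 91.4% of their union, the closest match among the main peaks of the 10 genes. The 4-unit heat shock element of HSPD1 lay within this peak in both lines, at a distance from the midpoint of 347 bp (MV4-11) and 266 bp (U937). It also covered a start of HSPE1-MOB4, the annotated readthrough transcript of HSPE1 and its neighbour MOB4.

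A second promoter peak of HSPD1 lay at its most distant start, which is close to the start of MOB4, a gene of the STRIPAK phosphatase complex. It was 686 bp wide in MV4-11 and 594 bp wide in U937, and the U937 peak lay wholly within the MV4-11 peak. It covered the MOB4 start and none of HSPD1, so that its count under HSPD1 rests on the annotated distal transcript. A peak of 783 bp stood 7.81 kb upstream of the HSPD1 start in U937 and had no counterpart in MV4-11, the only extra peak near the chaperonin pair that was seen in 1 line.

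HSPA9 encodes mortalin, the HSP70 of the mitochondrial matrix, which pulls proteins in through the import channel. Its promoter peak was chr5:138575028-138576738 (1710 bp) in MV4-11 and chr5:138574927-138575909 (982 bp) in U937. The MV4-11 peak reached 1337 bp upstream of the start and the U937 peak 508 bp, whereas the downstream ends were 373 bp and 474 bp from the start. The overlap was 48.6% of the union, the smallest among the main peaks of the 10 genes, and the width ratio of MV4-11 over U937 was 1.74. An intronic peak 3.99 kb downstream of the start in MV4-11 (343 bp) overlapped a wider peak in U937 (709 bp). A peak at the promoter of ETF1, a translation termination factor, was also found in both lines, at 2350 bp in MV4-11 and 1072 bp in U937. Further extra peaks of HSPA9, of 333 and 385 bp in MV4-11 and 418 bp in U937, had no counterpart.

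At both ER chaperone genes the U937 main peak lay wholly inside the MV4-11 main peak. HSPA5 encodes BiP, the HSP70 of the ER and the sensor partner of the unfolded protein response. Its peak was chr9:125240767-125242125 (1358 bp) in MV4-11 and chr9:125240833-125241912 (1079 bp) in U937. The ER stress element of HSPA5 lay 46 bp from the peak midpoint in MV4-11 and 28 bp in U937. Extra peaks near HSPA5 were 2 in each line, and each overlapped a peak of the other line: 1 at the promoter of GAPVD1, an endosomal exchange factor, and 1 farther inside, 18.2 kb upstream of the start in MV4-11 (470 bp wide) and 18.5 kb in U937 (508 bp wide).

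HSP90B1 encodes GRP94, the HSP90 of the ER, which folds Toll-like receptors and integrins. Its main peak was chr12:103929022-103930809 (1787 bp) in MV4-11 and chr12:103929326-103930777 (1451 bp) in U937. Both ER stress elements lay within the peak in both lines, upstream of the start, on the side to which the peak reached farther (1388 bp in MV4-11 and 1084 bp in U937). A narrow intronic peak of 336 bp lay near a second start of HSP90B1 in MV4-11 alone, and another of 312 bp lay 3.94 kb into the gene, also in MV4-11 alone. Both were narrower than most peaks of that line, and 22.4% of the MV4-11 peaks were under 400 bp, against 16% in U937. A shared extra peak beyond the gene end, at the promoter of UQCC6 (an assembly factor of respiratory complex III), measured 1393 bp (MV4-11) and 902 bp (U937). The shortest U937 peak was 330 bp and the shortest MV4-11 peak 283 bp, so that peaks of the size of the 312 bp one were listed for MV4-11 only.

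**Figure D1:**
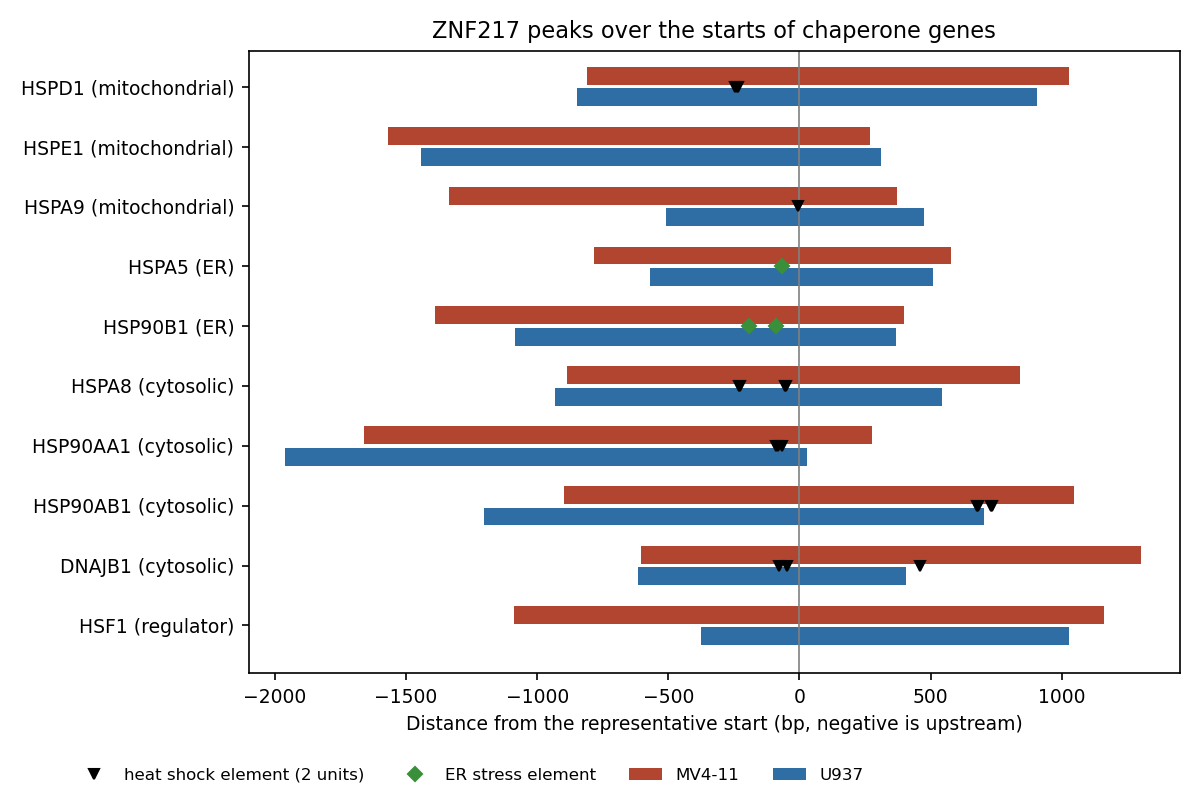
ZNF217 peaks over the main start of each of the 10 genes, in bp from that start, in MV4-11 (red, upper bar) and U937 (blue, lower bar), with black triangles for heat shock elements of 2 or more units and green diamonds for ER stress elements, placed by their first base. All 20 bars cross the start; the U937 peak of HSP90AB1 ended between the 2 intronic heat shock elements, and that of DNAJB1 ended before the element 461 bp downstream.

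HSPA8 encodes HSC70, the constitutive HSP70 of the cytosol, and is used in clathrin uncoating and in chaperone-mediated autophagy. Its promoter peak was chr11:123061294-123063023 (1729 bp) in MV4-11 and chr11:123061593-123063068 (1475 bp) in U937. The upstream ends of the 2 peaks were close, at 887 bp and 932 bp from the start, and the MV4-11 peak reached 842 bp downstream against 543 bp in U937. The proximal element of HSPA8 lay 27 bp from the peak midpoint in MV4-11 and 145 bp in U937, whereas the distal one lay 202 bp from it in MV4-11 and 30 bp in U937. HSPA8 had 2 extra peaks in MV4-11 and 1 in U937, and the U937 peak overlapped 1 of those in MV4-11.

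HSP90AA1 and HSP90AB1 encode the inducible and the constitutive cytosolic HSP90, whose clients include kinases and steroid receptors. The main peak of HSP90AA1 was chr14:102086769-102088705 (1936 bp) in MV4-11 and chr14:102087014-102089004 (1990 bp) in U937, the only one of the 10 genes with the wider main peak in U937. It was also the most one-sided, reaching 1661 bp upstream and 275 bp downstream of the start in MV4-11, and 1960 bp upstream and 30 bp downstream in U937. Its 3-unit element lay well off the centre, 611 bp from the midpoint in MV4-11 and 883 bp in U937. HSP90AA1 also had a peak at its distal start, 1667 bp wide in MV4-11 and 1071 bp in U937, which covered the start of the divergent WDR20, a cofactor of deubiquitinases. An intronic peak of 400 bp and 2 extra peaks of 314 and 1045 bp beyond the gene end were called in MV4-11 without overlap in U937, which had no extra peak near HSP90AA1.

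HSP90AB1 had 1 promoter peak in each line, chr6:44246203-44248147 (1944 bp) in MV4-11 and chr6:44245899-44247806 (1907 bp) in U937. The widths were close (ratio 1.02), but the midpoints were 322 bp apart, since the U937 peak began 304 bp farther upstream and the MV4-11 peak ended 341 bp farther downstream. The first intronic element of HSP90AB1 lay inside both peaks, and the second inside the MV4-11 peak alone. Its surroundings were densely occupied, with 9 extra peaks in MV4-11 and 7 in U937, of which 7 in MV4-11 and 6 in U937 overlapped a peak of the other line. They included the promoters of SLC29A1 (a nucleoside transporter), SLC35B2 (a sulfate donor transporter of the Golgi) and NFKBIE (an inhibitor of NF-kB) in both lines. An upstream peak 9.28 kb from the start was almost the same in both, at 1041 bp in MV4-11 and 1044 bp in U937.

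DNAJB1 encodes the HSP40 that delivers substrate to cytosolic HSP70 and stimulates its ATPase. Its main peak was chr19:14517094-14519003 (1909 bp) in MV4-11 and chr19:14517991-14519013 (1022 bp) in U937, the largest width ratio of the 10 genes at 1.87. The upstream ends differed by 10 bp, and the MV4-11 peak reached 1303 bp downstream of the start against 406 bp in U937, over 5 annotated starts of DNAJB1 in MV4-11 and 2 in U937. The elements at 77 and 47 bp before the start lay within both peaks, and an element of 2 units at an internal start lay within the MV4-11 peak alone. Most of the 23 annotated starts of DNAJB1 lay under a peak at the start of TECR, an enzyme of fatty acid elongation. That peak covered 15 of them in MV4-11 (1124 bp wide) and 13 in U937 (638 bp wide). Another promoter peak of DNAJB1 (718 bp) was called in MV4-11, and it overlapped by 189 bp a U937 peak of 363 bp that lay outside the promoter window. The widest extra peak near DNAJB1, of 2668 bp at the promoter of GIPC1 (a PDZ adaptor of membrane trafficking), was called in MV4-11 alone. The peak at the promoter of NDUFB7, a subunit of respiratory complex I, was shared and of like width, at 552 bp (MV4-11) and 579 bp (U937).

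HSF1 encodes the factor that activates heat shock genes and is the regulator among the 10. Its main peak was chr8:144290515-144292764 in MV4-11, the widest of all at 2249 bp, and chr8:144291228-144292633 (1405 bp) in U937, and it also covered the start of the divergent BOP1, a ribosome assembly gene. The MV4-11 peak reached 1089 bp upstream against 376 bp in U937, with similar downstream reaches of 1160 bp and 1029 bp. At internal starts of HSF1, 3 further promoter peaks of 619, 359 and 1624 bp were called in MV4-11, and none of these overlapped a U937 peak. HSF1 had 15 extra peaks in MV4-11 and 1 in U937, the largest gap between the lines among the 10 genes. The only one in common was at the promoter of DGAT1, an enzyme of triglyceride synthesis, at 3343 bp in MV4-11 and 363 bp in U937.

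Over the 10 genes the widest promoter peak had a median width of 1838 bp (1358 to 2249 bp) in MV4-11, against 1084 bp over the 11779 genes occupied in that line. In U937 the median was 1463 bp (982 to 1990 bp), against 979 bp over 10091 genes. HSPD1 and HSPE1 share 1 peak, which enters these medians and the counts below under both genes. With that peak counted once, the median over 9 main peaks was 1838 bp in MV4-11 and 1451 bp in U937. All but HSPA5 exceeded the upper quartile of all occupied genes in MV4-11 (1609 bp). In U937 HSPA9, HSPA5 and DNAJB1 lay near the median of all genes, and the other 7 stood above the upper quartile (1377 bp). The main peak was wider in MV4-11 than in U937 for 9 of the 10 genes, against 63% of the 7220 genes whose main start was under a peak in both lines. The median ratio was 1.2 (0.973 to 1.87), against 1.11 over all these genes with quartiles of 0.891 and 1.41. HSPA9, DNAJB1 and HSF1 lay above the upper quartile, and the other 7 lay between the quartiles.

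**Figure D2:**
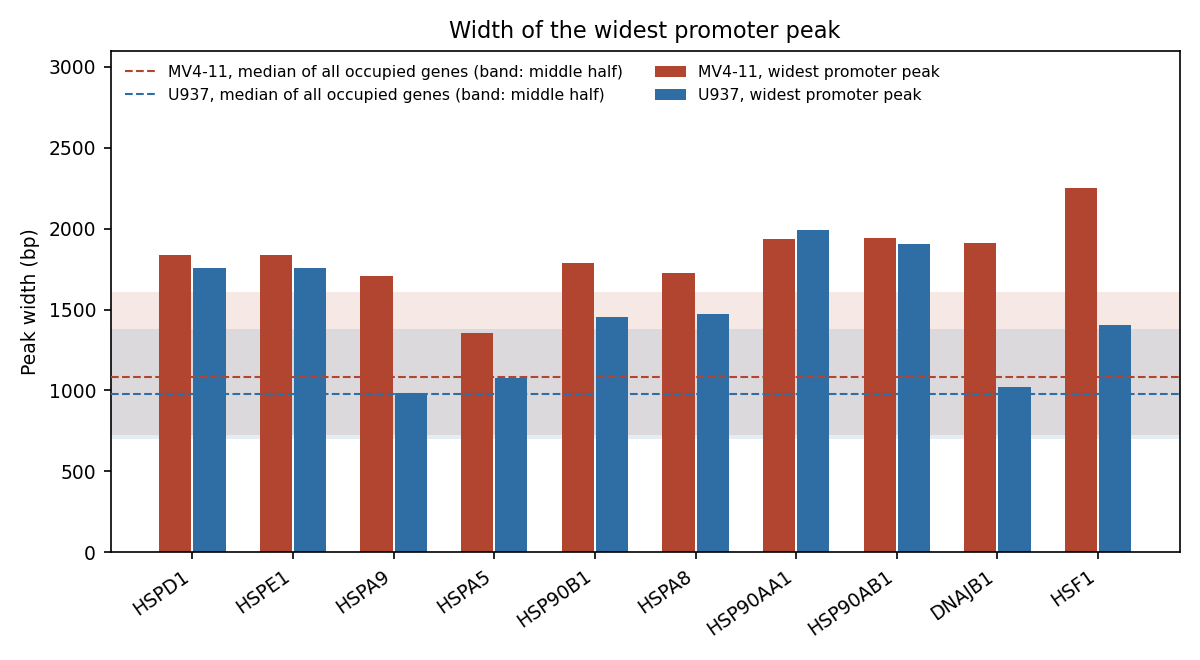
Width in bp of the widest promoter peak of each gene in MV4-11 (red, left bar) and U937 (blue, right bar), with the median (dashed line) and the range between the quartiles (band) of all occupied genes in each line. In MV4-11 9 of the 10 bars stand above the upper quartile of 1609 bp and in U937 7 stand above 1377 bp, with HSPA9, HSPA5 and DNAJB1 near the U937 median of 979 bp. The bars of HSPD1 and HSPE1 show the same peak.

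The main peaks reached past the start on both sides at all 10 genes. Their median reach was 994 bp upstream and 709 bp downstream in MV4-11, against 520 bp and 513 bp over all genes, and 890 bp upstream and 492 bp downstream in U937, against 490 bp and 474 bp over all genes. The peak reached farther upstream than downstream at 6 of the 10 genes in MV4-11 and 8 of the 10 in U937, against 50.8% of all genes in MV4-11 and 48.8% in U937, so that the count was near the background in MV4-11 and above it in U937. HSPD1, HSP90AB1, DNAJB1 and HSF1 reached farther downstream in MV4-11. Among these, HSP90AB1 and DNAJB1 reached farther upstream in U937, whereas HSPD1 and HSF1 reached farther downstream there too. HSPD1 and HSPE1 share their peak, so that the upstream side of each gene is the body of the other.

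In all, the 10 genes had 18 different promoter peaks in MV4-11 and 12 in U937. Of these, 13 in MV4-11 and 12 in U937 shared 1 bp or more with the other line's peaks, against 62.6% of all promoter peaks in MV4-11 and 87% in U937. The 9 main peaks (1 for the chaperonin pair) were shared in both directions. This was fixed in advance, since each covered the same main start in both lines. Of the 9 further promoter peaks in MV4-11, 4 were shared, and of the 3 in U937, 3 were. The shares over all promoter peaks also include peaks over main starts, so they are no measure for the further peaks alone. With 2 or more promoter peaks, 5 genes stood out in MV4-11 (HSPD1, HSP90B1, HSP90AA1, DNAJB1 and HSF1) and 3 in U937 (HSPD1, HSP90AA1 and DNAJB1), against 27.9% and 19% of all occupied genes in MV4-11 and U937. These genes have annotated starts spread over 11.7 to 55.5 kb, which widens the sequence searched.

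Extra peaks, those within 20 kb of a start but outside the promoter, were found at 9 of the 10 genes in each line, against 53.4% of all genes in MV4-11 and 43.2% in U937. The search ran from every annotated start, so it was wider at genes with spread starts, and no allowance was made for this. Examples are HSP90AA1 (55.5 kb), DNAJB1 (42.8 kb), HSPD1 (26.2 kb) and HSF1 (21.4 kb). HSPD1 had none in MV4-11, and HSP90AA1 had none in U937. The only extra peak of HSPE1 in MV4-11 was the MOB4 peak that counts as a promoter peak of HSPD1. Leaving out such peaks, and counting once a peak near both chaperonin genes, there were 52 extra peaks in MV4-11, of which 17 overlapped a U937 peak, and 21 in U937, of which 17 overlapped an MV4-11 peak. Over the extra peaks of all genes these shares were 36.2% in MV4-11 and 68.1% in U937, so that the low sharing in MV4-11 was near that of all genes. Of those at the promoter of another gene, 11 of 18 were shared in MV4-11 and 10 of 10 in U937. Of those elsewhere, 6 of 34 were shared in MV4-11 and 7 of 11 in U937, against 25.3% and 54% for all genes in MV4-11 and U937. Over all genes, 7690 of 21224 extra peaks were shared in MV4-11, with 3551 of 14026 elsewhere. In U937 the numbers were 7877 of 11559, with 3664 of 6780 elsewhere. Extra peaks at promoters were thus the more often shared over all genes too, which is no trait of the 10 genes. Most of the excess of MV4-11 lay near DNAJB1 (16 extra peaks in MV4-11 against 5 in U937) and HSF1 (15 in MV4-11 against 1 in U937), where 13 and 14 of the MV4-11 peaks had no counterpart. Of the 52 peaks, 16 were under 400 bp wide, against 4 of the 21 in U937. The MV4-11 list is also the longer one, and its part in these differences was not tested.

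**Figure D3:**
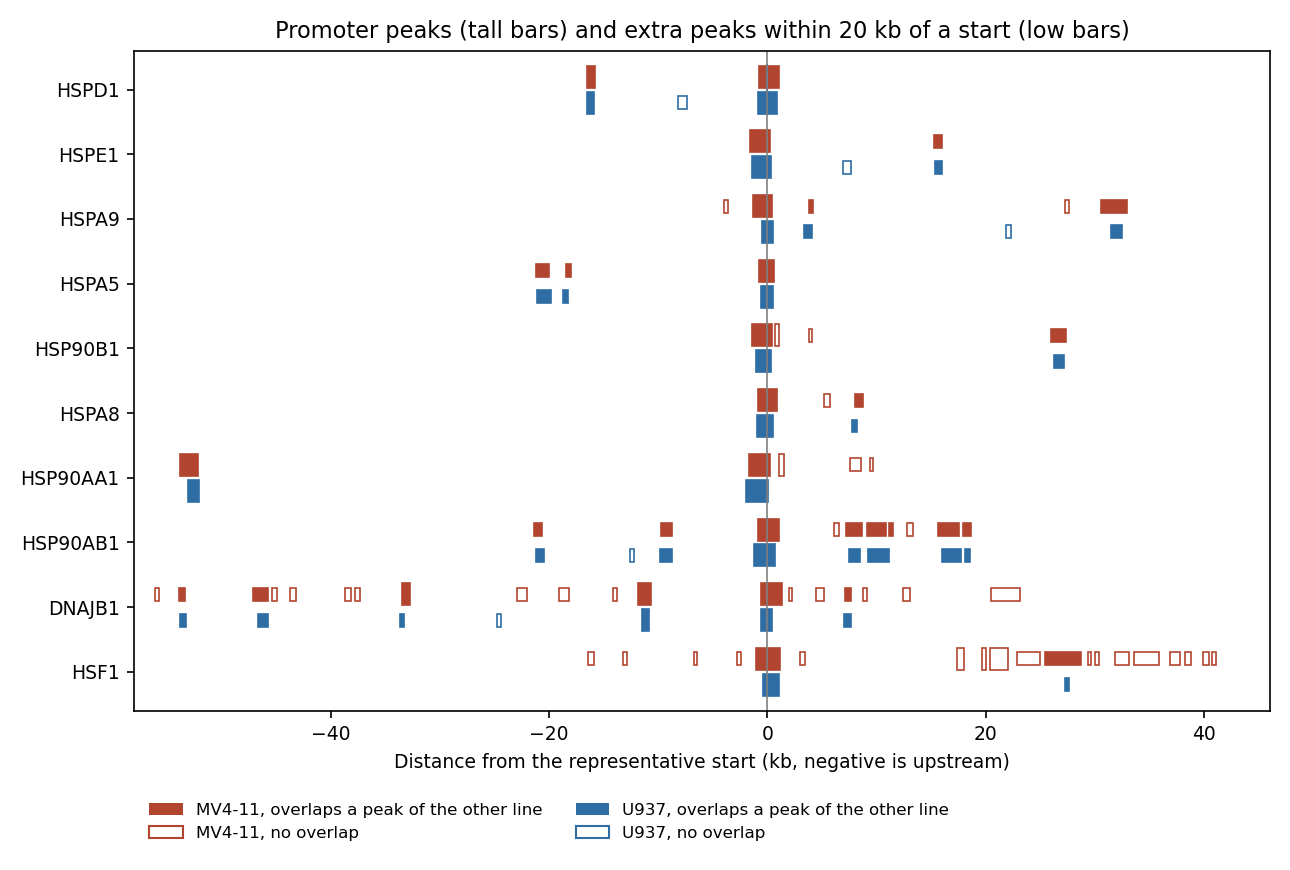
Promoter peaks (tall bars) and extra peaks (low bars) of the 10 genes by distance in kb from the main start, in MV4-11 (red, upper row) and U937 (blue, lower row), filled where the peak overlaps one of the other line and open where it does not. The low open red bars near DNAJB1 and HSF1 are the 13 and 14 extra peaks of MV4-11 without overlap. Tall open red bars at HSF1 are promoter peaks without overlap, and the filled bars at the start are shared in both lines.

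Across 90 other chaperone genes in 10 lists, 78 had a promoter peak in MV4-11, 72 in U937 and 72 in both, against the shares of 59%, 50.5% and 47.4% of all genes. Occupancy was complete for the CCT chaperonin and prefoldin genes, which fold actin and tubulin (14 of 14 in both lines, among them TCP1, CCT2 and CCT3), for ER chaperones (14 of 14, among them HYOU1, SIL1 and CALR), for mitochondrial chaperones and proteases (10 of 10, among them TRAP1, GRPEL1 and GRPEL2) and for unfolded protein response factors (6 of 6, among them XBP1, ATF6 and ATF4). The peaks of the CCT and prefoldin genes were narrower than those of the 10 genes, with medians of 834 bp (MV4-11) and 886 bp (U937). Wide peaks were not particular to the 10 genes. For the HSP90 cochaperones the medians were 1934 bp in MV4-11 and 1305 bp in U937, against 1838 bp and 1463 bp for the 10 genes. Over all 90 genes they were 1291 bp and 1008 bp. HSP40 genes were occupied in 7 of 8 in each line, with DNAJA1, DNAJA2 and DNAJB2 in both and DNAJA4 in neither.

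The cytosolic HSP70 genes were less complete, with 7 of 11 in MV4-11 and 5 of 11 in U937. HSPA4, HSPA4L and HSPA6 were occupied in both, HSPA1B and HSPA2 in MV4-11 alone, and HSPA1A, HSPA1L and HSPA12A in neither. HSPA1A and HSPA1B, the stress-inducible HSP70 genes, are near-identical copies, so that reads may not be placed with certainty between them and their calls are uncertain. The HSP90 cochaperones were occupied in 7 of 7 in MV4-11 and 6 of 7 in U937, with AHSA1, CDC37 and PTGES3 in both and FKBP5, a target of the glucocorticoid receptor, in MV4-11 alone (1934 bp). Among exchange factors and the linked ubiquitin ligase the counts were 7 of 7 in MV4-11 and 6 of 7 in U937, with BAG1, BAG2 and BAG4 in both lines and BAG3, the stress-induced member, in MV4-11 alone (462 bp). Among the other heat shock factor genes HSBP1, which encodes a binding partner of HSF1, was occupied in both lines, HSF2 and HSF4 in MV4-11 alone and HSF5 in neither. Small heat shock protein genes were occupied in 3 of 9 in each line, below the share of all genes, with HSPB1, HSPB6 and HSPB9 in both and HSPB2, HSPB3 and HSPB7 in neither. No gene of these lists was occupied in U937 alone.

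**Figure D4:**
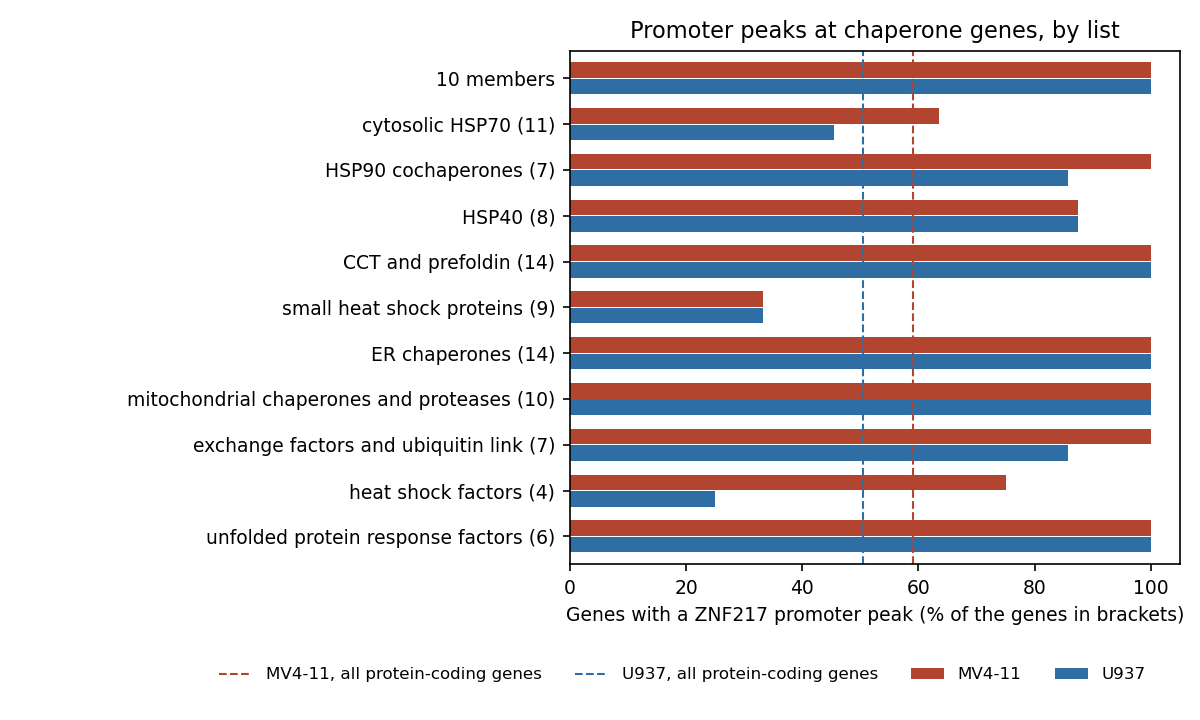
Percent of genes with a ZNF217 promoter peak in MV4-11 (red, upper bar) and U937 (blue, lower bar) for the 10 genes and for 10 other chaperone lists, with the number of genes of each list in brackets and the shares of all protein-coding genes as dashed lines (59% in MV4-11 and 50.5% in U937). Small heat shock proteins (3 of 9 in each line) lie below both lines, and cytosolic HSP70 (5 of 11) and heat shock factors (1 of 4) lie below the line in U937.

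The windows that hold the elements were compared with all windows. The start lay under a peak in 46.4% of all RefSeq windows in MV4-11 and 37.2% in U937. For the 89 windows with a 3-unit heat shock element the shares were 36% in MV4-11 and 27% in U937, and for the 23 windows with an ER stress element they were 73.9% in MV4-11 and 56.5% in U937. The element of 4 units that HSPD1 carried was in 5 windows, of which 3 had their start under a peak in MV4-11 and 4 in U937, too few for a share. HSPA8 and HSP90AA1, with 3 units, were occupied where most windows with this element were not. HSPA5 and HSP90B1 were occupied, as were 17 (MV4-11) and 13 (U937) of the 23 windows with an ER stress element. The windows of these genes are themselves counted in those numbers, so the comparison is in part with itself. Windows with CAGAA had their start under a peak in 39.4% in MV4-11 and 32.7% in U937, below the share of all windows. This was not particular to CAGAA, since windows with the sequence TATAAA were also below that share (21.3% in MV4-11 and 16.5% in U937). Windows with a 2-unit heat shock element were below it too (37.1% in MV4-11 and 30.5% in U937). That element can share bases with CAGAA, and windows with both were not set apart. Windows with the GC box were above the share of all windows (61.1% in MV4-11 and 48.6% in U937).

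Pseudogenes, mostly inserted copies of spliced transcripts that lack the promoter, are numerous for these genes, and 78 are annotated under their names, including 26 of HSPE1, 18 of HSPD1 and 17 of HSPA8. Of these, 1 overlapped a peak in MV4-11, HSP90AB4P with a peak of 452 bp, and none did in U937, against 3.61% of all annotated pseudogenes in MV4-11 and 2.64% in U937.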

How the data were processed

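ZNF217 CUT&Tag was made in MV4-11 and U937, with 1 library each. Groups were taken from the sample titles. Per the submitters' processing notes, the aligner was Bowtie2 2.4.4 (hg38) and the peak caller MACS3 3.0. Whether IgG served as control, duplicates were removed or blacklisted regions excluded was not stated. The deposited unit is other than a signal: the authors' lists hold only chromosome, start and end of each peak, so that depth is unknown and precision rests on the number of peaks. Gene starts were those of GENCODE 44, and the representative start was that of the Ensembl canonical transcript. Peaks were compared in Python 3.11.15 with NumPy 2.4.6, pandas 2.3.3 and pysam 0.24.0, the reference was indexed with samtools 1.23.1, and Matplotlib 3.10.9 was used for figures. The interval code was tested on simulated data. No p-value was calculated. Chromosomes 1 to 22 and X were used.

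The 10 genes and the lists were chosen with earlier results of these data known. Named genes were the 10 genes, up to 3 of each list in list order per pattern of occupancy, genes with a start in a promoter peak, and genes at whose promoter an extra peak lay. Alternatives changed the promoter (500 bp, 3 kb or 1 TSS), the distance (10 or 50 kb, or from the gene span), peak width (at least 400 bp), merging (500 bp), overlap (reciprocal 50%, or within 500 bp), list length and motif window.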

Additional observations from a re-analysis of the deposited data

How the results depend on the processing

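The count of 10 genes with a promoter peak was the same in MV4-11, in U937 and in both under every alternative run. These were a promoter of 500 bp or 3 kb, 1 TSS per gene, peaks of at least 400 bp, and equally long lists of the widest peaks. The main peaks covered the main start at all 10 genes and were at least 982 bp wide. The promoter, TSS and width settings therefore could not lower this count, and a list of the widest peaks favours wide peaks such as these. The share of all genes ranged between 52% and 62% in MV4-11 and between 46.5% and 53.5% in U937. With 1 TSS per gene, MV4-11 had 10 promoter peaks in place of 18, and the median distance of promoter peak midpoints from the start was 349 bp in place of 192 bp in MV4-11 and 222 bp in place of 95 bp in U937, since alternative starts were dropped. With a 500 bp promoter that distance was 184 bp in MV4-11. Merging of peaks less than 500 bp apart gave a median width of 1874 bp in MV4-11. Extra peaks numbered 30 in MV4-11 and 12 in U937 within 10 kb, and 36 in U937 within 50 kb. In the central 300 bp of the widest promoter peak, heat shock elements of 2 units were found at 2 of the 10 genes in MV4-11 and 3 in U937 (8.6% and 9.1% of all occupied genes in MV4-11 and U937), of 3 units at 1 gene in each line (0.297% and 0.307%), of 4 units at 0 genes (0.017% and 0.0297%), the ER stress element at 1 gene in each line (0.0764% and 0.0595%) and CAGAA at 3 genes in each line (42.4% and 43.1%). In MV4-11, CCGGAA was found there at 2 genes (25.3% of all) and TGACG at 3 (29.2%), against 1 and 6 of the 9 windows at the main starts. In MV4-11 the counts of these last 3 short sequences were near or below the share of all occupied genes. In U937 the last of the 3 was found at 5 of the 10 genes, above the 30% of all occupied genes. Its 6 of the 9 windows at the main starts were likewise above the 27.9% of all windows. The first 2 were below the share of all occupied genes in U937 too, at 3 genes (43.1%) and 1 gene (25.3%). The centre of a peak is other sequence than the promoter window, so these counts differ by construction. Of 135 alternative values of the main results, 115 stayed the same or within 1.5 times for counts. Among them are values that could not change, such as those of the count of 10 genes. No paired analysis was possible because each line has 1 library. Without heights or counts, peak strength could not be compared, and a peak that is absent from a list cannot be told apart from one under the caller's threshold.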
